A study of Mus musculus with 12 samples.

Results

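The genes described here encode chemokines, interleukins, tumour necrosis factor (TNF) superfamily ligands and colony-stimulating factors, the secreted or membrane-bound proteins through which cells signal to immune and neighbouring cells. They were taken from a table of 16425 genes by name: symbols that begin with CCL, CXCL, IL or TNFSF and a digit, with CX3CL1, PPBP, PF4, TNF, LIF, CSF1, CSF2 and CSF3. The names matched 77 genes. Of these, 31 encode interleukin receptors and are treated as a separate group. Another 3 are neither ligand nor receptor: Il18bp, which encodes a binding protein, Il4i1, which encodes an enzyme, and Tnfsf13os, an antisense RNA. The remaining 43 are ligands, in 5 classes: 11 CC chemokines, 13 CXC and CX3C chemokines, 12 interleukins (with the receptor antagonist Il1rn), 4 TNF superfamily ligands and 3 colony-stimulating factors or LIF. Tnf and Csf3 were not listed in the table.

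RNA came from wild-type MEFs (embryonic fibroblasts of the mouse, a connective tissue cell in primary culture) that had been infected with a guide RNA and grown for 24 h in 0.5 µM doxorubicin. Doxorubicin damages DNA and activates the transcription factor p53. One line ("Mefs sgtom") carried a nontargeting guide, called the control guide here, and the other ("Mefs sg10") a guide against the p53 response element of the long noncoding RNA gene Pvt1, called the response element guide. Each guide had 3 libraries, given below in the order of their replicate numbers 1, 2 and 3. All 6 libraries thus came from doxorubicin-treated cells, and the 6 untreated samples of the series were not analysed here, so no value below shows what doxorubicin changed. The design text calls the replicates biological. It gives neither the number of animals or clones behind a line nor what libraries of equal number share.

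Chemokines are small proteins that bind G protein-coupled receptors and attract leukocytes along a gradient. Fibroblasts under stress or in senescence can secrete several of them together with interleukin 6, and the transcription factors NF-kB and AP-1 bind near the start of many of these genes. The gene families sit in clusters: neutrophil-attracting CXC chemokines on mouse chromosome 5 and monocyte-attracting CC chemokines on chromosome 11.

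The CXC cluster of chromosome 5 holds 7 listed genes in the order Cxcl5, Ppbp, Pf4, Cxcl3, Cxcl15, Cxcl1 and Cxcl2. The stretch of 150 bases before the start is printed for 6 of them and for Il6, which lies elsewhere on the same chromosome. Cxcl5 had no promoter among the RefSeq entries used. The stretches are printed because Ppbp and Cxcl15 had opposite levels across replicates, as the values further on show. Sequences are RefSeq's (GRCm38.p6), 5′ to 3′ on the gene's strand, in lower case. Capitals mark matches to the NF-kB consensus on either strand, to the AP-1 motif TGANTCA on either strand and to TATAAA on the gene's strand. All 7 genes are on the plus strand, and the stretches lie at chr5:90768368-90768517, chr5:90772285-90772434, chr5:90785951-90786100, chr5:90794384-90794533, chr5:90891095-90891244, chr5:90903749-90903898 and chr5:30012964-30013113.
Ppbp: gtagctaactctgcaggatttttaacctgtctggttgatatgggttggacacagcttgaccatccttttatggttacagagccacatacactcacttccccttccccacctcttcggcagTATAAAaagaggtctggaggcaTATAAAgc
Pf4: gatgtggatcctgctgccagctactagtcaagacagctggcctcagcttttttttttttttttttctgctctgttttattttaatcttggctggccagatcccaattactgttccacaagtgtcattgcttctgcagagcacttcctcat
Cxcl3: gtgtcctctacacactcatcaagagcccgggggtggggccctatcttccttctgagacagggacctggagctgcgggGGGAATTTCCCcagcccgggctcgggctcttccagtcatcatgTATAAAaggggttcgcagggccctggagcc
Cxcl15: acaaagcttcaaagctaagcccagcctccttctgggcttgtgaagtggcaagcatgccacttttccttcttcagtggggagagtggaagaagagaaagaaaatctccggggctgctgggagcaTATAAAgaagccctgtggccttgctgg
Cxcl1: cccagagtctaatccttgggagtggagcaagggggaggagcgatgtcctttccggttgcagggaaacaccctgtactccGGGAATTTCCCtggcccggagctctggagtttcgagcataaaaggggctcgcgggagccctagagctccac
Cxcl2: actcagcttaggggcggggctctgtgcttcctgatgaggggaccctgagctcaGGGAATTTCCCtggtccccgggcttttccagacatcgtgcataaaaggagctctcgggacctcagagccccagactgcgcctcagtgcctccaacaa
Il6: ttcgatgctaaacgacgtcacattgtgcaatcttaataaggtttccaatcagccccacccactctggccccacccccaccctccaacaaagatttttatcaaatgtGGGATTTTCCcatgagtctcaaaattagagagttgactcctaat

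Cxcl3, Cxcl1 and Cxcl2 shared the stretch GGGAATTTCCC, which holds 2 overlapping matches to the NF-kB consensus. Its first base lay 73, 71 and 97 bases before the start of the transcript. Il6 held a single match, GGGATTTTCC, which begins 44 bases before its start. The stretches before Ppbp, Pf4 and Cxcl15 held no match to the NF-kB consensus. TATAAA stood in front of Ppbp (30 and 8 bases before the start), Cxcl3 (30 bases) and Cxcl15 (27 bases). None of the 7 stretches held the AP-1 motif, but beyond the printed bases it began at position −249 for Il6 and −204 for Ppbp. Of the 43 ligands, 32 had at least 1 promoter in the RefSeq table, 41 windows in all. The 11 without were Ccl2, Ccl4, Ccl7, Cxcl16, Cxcl17, Cxcl5, Il15, Il25, Il34, Il7 and Tnfsf9, so the shares below leave these ligands out. Within 250 bases before the start, the NF-kB consensus was present in 10 of the 41 windows (24.4%) and in 7.25% of all 32851 windows. The AP-1 motif was present in 9 (22.0%) and in 6.75% of all windows, and TATAAA in 10 (24.4%) and in 7.59%. A match is a likeness of letters and shows no binding.

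The libraries held 50091418 to 66132317 reads in genes, and 36 of the 43 ligands passed the filter of at least 0.5 CPM in at least 3 libraries (CPM, read counts that the authors put on a common scale across libraries). The 7 that did not pass were Ccl4, Ccl20, Ccl6, Cxcl2, Cxcl17, Csf2 and Il5, with means of 0.232 to 0.485 CPM. The targeted gene Pvt1 stood at 16.4, 11.7 and 12.1 CPM with the control guide and at 8.04, 5.93 and 5.40 CPM with the response element guide, without overlap. Its neighbour Myc stood at 28.7, 27.0 and 35.6 CPM and at 43.5, 48.6 and 53.8 CPM, also without overlap. The fibroblast markers were all present (11 of 11, summed at 16048 to 18461 CPM in a library), as the label says. Of the 17 macrophage marker symbols 16 were listed, and the other, Emr1, is a former symbol of Adgre1, which was listed. T and NK cell markers were not listed at all, and 1 of 4 B cell markers, 1 of 5 mast cell markers, 4 of 6 endothelial and 5 of 6 epithelial markers were. Of those listed, 16 macrophage, 1 B cell, 0 mast cell, 2 endothelial and 2 epithelial markers passed the filter. Listed macrophage markers summed at 120 to 437 CPM in a library, endothelial ones at 49.6 to 72.9 and epithelial ones at 54.5 to 99.4. Kdr alone had 47.5 to 69.3 CPM and Krt19 alone 51.4 to 96.9 CPM, while Pecam1, Emcn, Epcam and Cdh1 did not pass the filter. In these bulk samples, fewer cells of a type and less RNA per cell cannot be told apart.

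**Figure D1:**
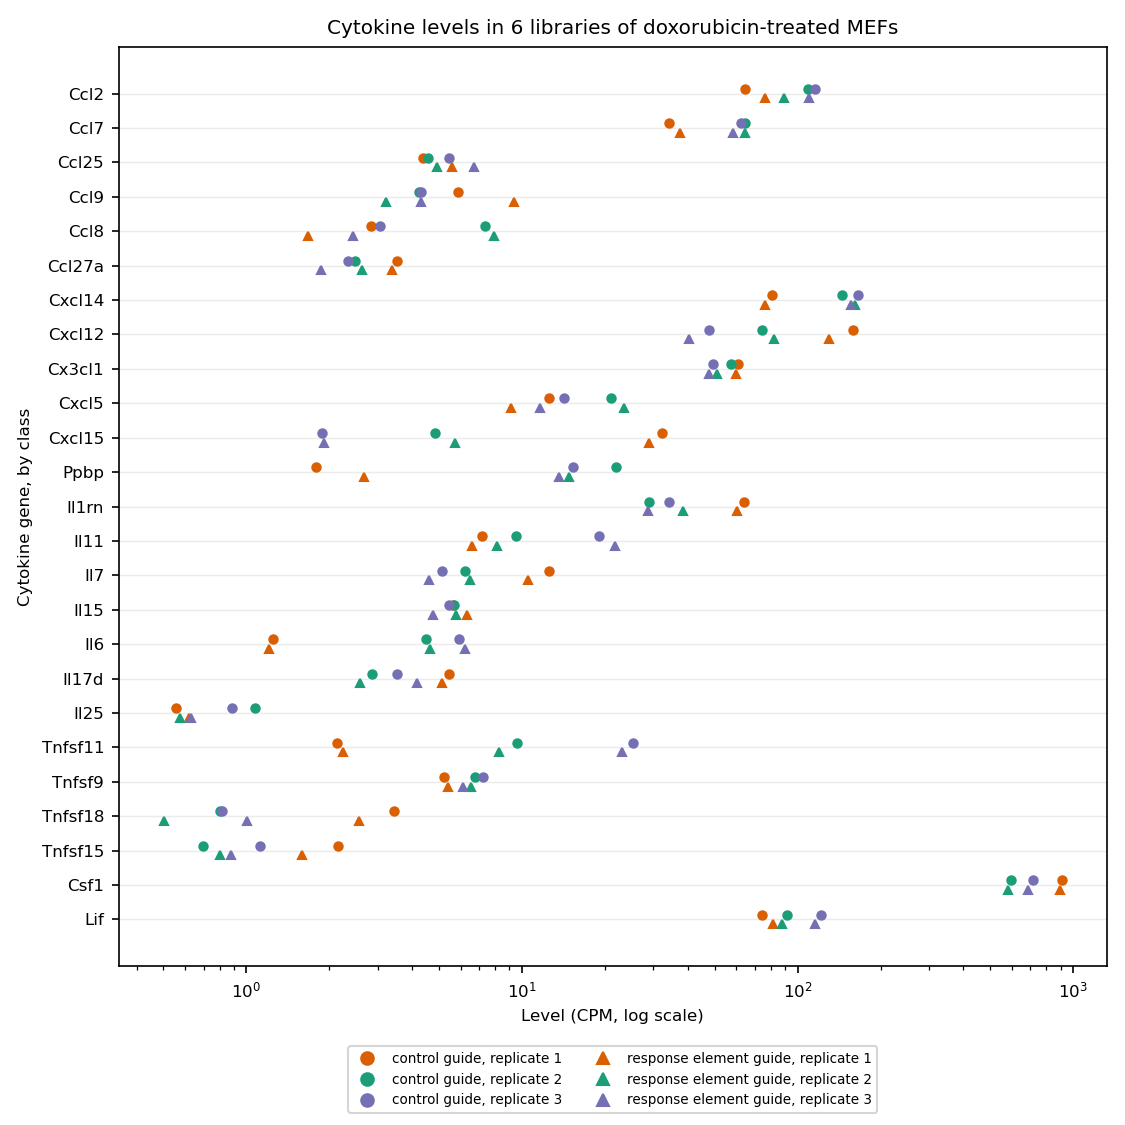
Level in CPM (log axis) of the 25 cytokine genes described by name under a fixed rule, in each of the 6 libraries; circles are the control guide, triangles the response element guide, and colours the replicate number. The circle and triangle of a colour lie close together for most genes, while colours lie far apart for Cxcl15, Ppbp, Tnfsf11 and Il6.

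Levels of different genes were compared per kilobase of exon. By that measure Csf1, Ccl2, Cxcl14 and Ccl7 stood highest. Csf1, the growth factor of macrophages, had a mean of 138 CPM per kb over the 6 libraries. Ccl2 and Ccl7, which attract monocytes, had 82.6 and 66.7 CPM per kb, and Cxcl14, a chemokine made by many epithelia and fibroblasts, had 71.6. Lif, a cytokine of the interleukin 6 family, followed at 21.9 CPM per kb, and Cx3cl1, the membrane-bound chemokine fractalkine, at 13.8. Cxcl12, which retains stem and immune cells in tissues through Cxcr4, had 10.9 and Ppbp, a neutrophil attractant best known from platelets, 10.8. The lowest tested ligand was Ccl28 at 0.111 CPM per kb. In CPM, 12 of the 43 ligands had a mean under 1 and 13 a mean of 10 or more. The summed CPM of all 43 ligands under the control guide was 1583, 1303 and 1460, and under the response element guide it was 1547, 1285 and 1383. Csf1 alone made up 45.1% to 57.8% of that sum in a library. The sums were highest in both replicate 1 libraries and the guides overlapped.

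The first comparison asked whether cytokine RNA differs between the guides after doxorubicin. None of the 36 tested ligands was called different. The log2 fold changes (response element guide over control guide, on log2(CPM + 0.5), which understates the change of low genes) ran from −0.26 for Ccl8 to 0.50 for Ccl3, with 13 above 0 and 23 below, where 49.7% of all genes lay above. Their median was −0.05, and that of all 14440 tested genes was −0.0004. In limma without a block, 0 of 36 ligands passed an adjusted p of 0.05, where 0% of all genes did, and 0 had an unadjusted p under 0.05, where 0.346% of all genes did. In the fit with replicate number as a block, again 0 of 36 ligands passed, where 0.0346% of all genes did. At an unadjusted p under 0.05 the blocked fit held 2 ligands, Ccl25 and Ccl3, where 6.68% of all genes lay under it. edgeR on all listed genes also called 0 of the 43 ligands, where it called 0% of all genes (unadjusted, 0 ligands and 0.499%), and with the block 0 ligands and 0.0304% (unadjusted, 2 ligands and 6.73%). DESeq2 called 0 of the 43 and 0.00609% of all genes (unadjusted, 0 ligands and 0.231%), and with the block 0 and 0.0365% (unadjusted, 1 ligand and 1.88%). No ligand had groups that did not overlap, where 2.15% of all tested genes lay wholly higher and 1.47% wholly lower. Limma without the block did not call Pvt1 or Myc either, though the groups of neither gene overlapped. The blocked fit called both (limma adjusted p = 0.00014 for Pvt1 and 0.000549 for Myc). The ligand counts therefore do not show that the guides' levels are equal.

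**Figure D2:**
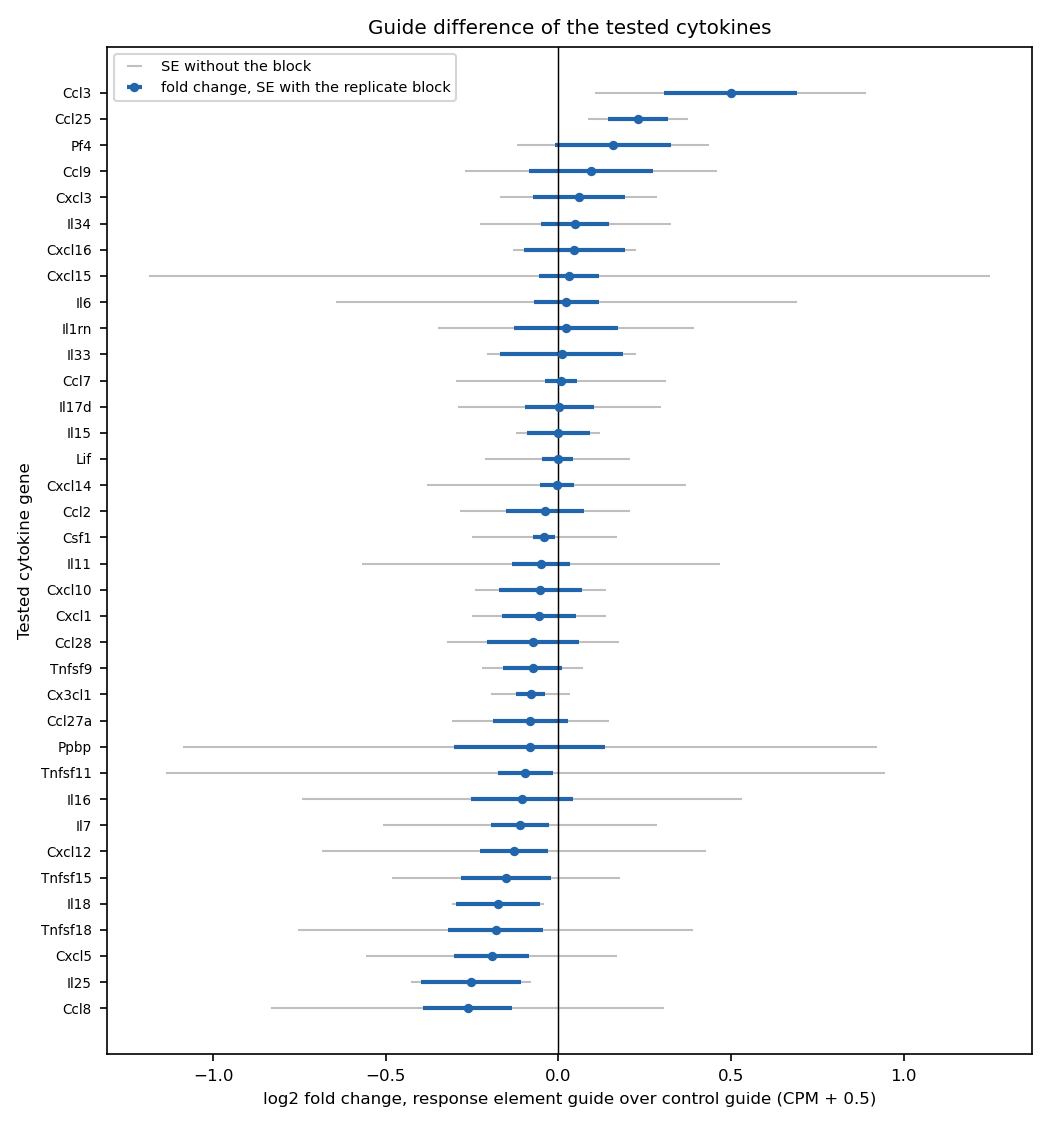
Log2 fold change of the response element guide over the control guide for the 36 tested cytokine genes, sorted; grey bars are 1 SE without the block and blue bars 1 SE with replicate number as a block. Points run from −0.26 to 0.50, and the blue bars are far shorter than the grey ones for Cxcl15, Tnfsf11 and Ppbp.

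Among the CC chemokines, 4 tested members lay above 0 and 4 below. Ccl2 stood at 64.5, 109 and 115 CPM with the control guide and at 76.2, 89.4 and 110 CPM with the response element guide. Ccl7 stood at 34.1, 64.3 and 62.5 CPM and at 37.3, 64.3 and 58.2 CPM. Both genes were lowest in the replicate 1 libraries of both guides, and the guides overlapped throughout. The log2 fold change was −0.04 for Ccl2 (SE 0.11 with the block) and 0.01 for Ccl7 (SE 0.05 with the block; limma adjusted p = 0.969 and 0.986).

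Ccl25, which attracts thymocytes and gut T cells, had 4.38, 4.57 and 5.46 CPM with the control guide and 5.58, 4.93 and 6.72 CPM with the response element guide. It was the only tested ligand that was higher in 3 of 3 pairs of equal replicate number, where 14.4% of all genes were, but the groups overlapped. Its log2 fold change was 0.23 (SE 0.09, limma adjusted p = 0.685 with the block, and 1 without). Two-sided exact permutation over samples gave p = 0.2, where 3 against 3 can reach 0.1. Exons of Ccl25 overlap Elavl1 on the opposite strand. The libraries were strand-specific, but whether counting used the strand is not stated in the sources used here.

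Ccl3, a macrophage inflammatory protein, was singled out after its values were seen, because it had the largest fold change. It stood at 0.693, 0.222 and 0.503 CPM with the control guide and at 1.92, 0.555 and 0.454 CPM with the response element guide, 13 to 127 reads a library. Its highest value was the replicate 1 library of the response element guide, and the pairs stood at 2.77, 2.50 and 0.902 times their control partner. The log2 fold change was 0.50 (SE 0.19, limma adjusted p = 0.706 with the block). Ccl9 had 5.89, 4.23 and 4.30 CPM and 9.40, 3.21 and 4.30 CPM, and Ccl4, below the filter, had 0.675, 0.358 and 0.311 CPM and 1.09, 0.215 and 0.261 CPM. All 3 chemokines peaked in the same library as the macrophage markers, whose sum was 274, 128 and 152 CPM with the control guide and 437, 120 and 152 CPM with the response element guide. No listed macrophage marker was at 0, and all 16 had both replicate 1 libraries as their highest. In pair 1 the median log2 difference of those markers was 0.64, and in pairs 2 and 3 it was −0.05 and −0.03. Other chemokines did not peak in the replicate 1 library of the response element guide. Among them, Pf4 had 0.156, 0.358 and 0.828 CPM with the control guide and 0.529, 0.358 and 0.674 CPM with the response element guide. Ccl6, below the filter, had 0.346, 0.409 and 0.311 CPM and 0.332, 0.287 and 0.261 CPM. The part of macrophage RNA in the Ccl3, Ccl4 and Ccl9 values was not tested.

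**Figure D3:**
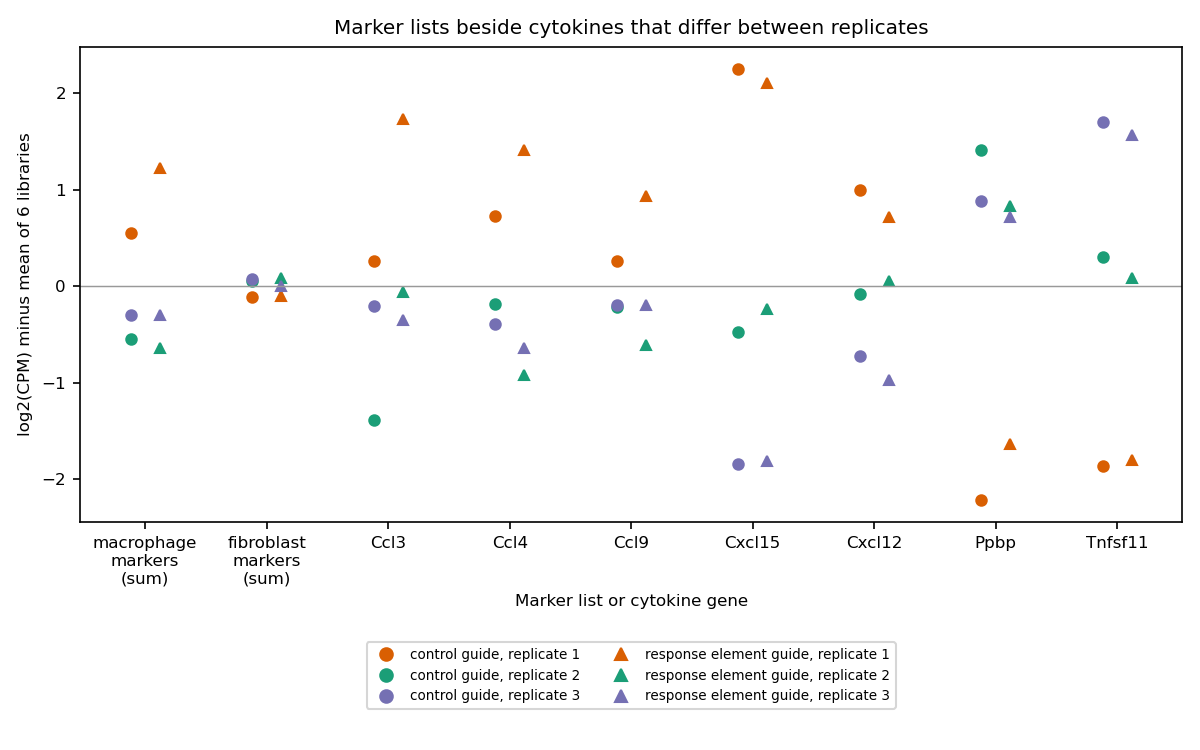
Level in each library as log2 CPM minus the gene's or list's mean over the 6 libraries, for the summed macrophage and fibroblast markers and 7 cytokine genes; circles are the control guide, triangles the response element guide, and colours the replicate number. The macrophage sum, Ccl3, Ccl4 and Ccl9 are highest in the replicate 1 library of the response element guide, and Ppbp and Tnfsf11 are lowest in both replicate 1 libraries.

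Ccl8, another monocyte attractant, had the lowest log2 fold change at −0.26 (SE 0.13, limma adjusted p = 0.742 with the block). Its levels were 2.84, 7.33 and 3.06 CPM with the control guide and 1.68, 7.90 and 2.45 CPM with the response element guide. Replicate 2 was the highest of both guides, and the groups overlapped. Ccl27a, a skin chemokine, stood at 3.53, 2.47 and 2.34 CPM and at 3.37, 2.63 and 1.87 CPM. Its count is uncertain, because near-identical gene copies exist at its locus and its exons overlap Il11ra1 on the opposite strand.

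Of the CXC and CX3C chemokines, 4 tested members lay above 0 and 7 below. Cxcl12 stood at 158, 74.6 and 47.8 CPM with the control guide and at 130, 82.4 and 40.3 CPM with the response element guide, so that each replicate number had its own level and the guides overlapped. Cxcl5, a neutrophil attractant, stood at 12.6, 21.1 and 14.3 CPM and at 9.10, 23.5 and 11.6 CPM. The Cxcl5 groups overlapped too, and for both genes the response element guide was lower in pairs 1 and 3 and higher in pair 2. The log2 fold change was −0.13 for Cxcl12 (SE 0.10) and −0.19 for Cxcl5 (SE 0.11; limma adjusted p = 0.849 and 0.773 with the block). Without the 2 libraries of replicate 2, the blocked fit called both lower: Cxcl12 at −0.27 (limma adjusted p = 2.67e-05) and Cxcl5 at −0.37 (limma adjusted p = 0.00598). That fit rests on 4 libraries and called 1.11% of all genes. It leaves out the only pair in which the response element guide was higher for these genes, so its calls do not show a guide difference. Leaving out replicate 1 instead called 0 ligands and 0.0554% of all genes, and leaving out replicate 3 called 0 ligands and 0.0623%.

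Cxcl14 stood at 81.0, 145 and 165 CPM with the control guide and at 76.4, 161 and 156 CPM with the response element guide. Cx3cl1 stood at 61.0, 57.5 and 49.3 CPM and at 59.9, 50.8 and 47.9 CPM. Cx3cl1 was lower with the response element guide in 3 of 3 pairs, as were Csf1 and Il18, which makes 3 of 36 tested ligands where 14.4% of all genes were lower in every pair. The log2 fold changes were −0.08 for Cx3cl1 (SE 0.04 with the block and 0.11 without, limma adjusted p = 0.745 with the block) and −0.005 for Cxcl14 (SE 0.05, limma adjusted p = 0.995).

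Csf1 stood at 911, 593 and 716 CPM with the control guide and at 894, 579 and 687 CPM with the response element guide, 32324 to 59162 reads a library. Its log2 fold change was −0.04 (SE 0.03, limma adjusted p = 0.839 with the block). Lif stood at 74.2, 91.6 and 122 CPM and at 81.5, 87.5 and 116 CPM. Csf1 was highest and Lif lowest in the replicate 1 libraries of both guides, so these well-measured genes differed in opposite ways between replicates. Without the block the SE of Csf1 was 0.21, and that of Lif was 0.21 against 0.04 with it.

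The interleukins had 5 tested members above 0 and 6 below, with a median of −0.0005 (0.0002 with a pseudocount of 1 and 0.0043 in edgeR). Il6, the central fever and acute-phase cytokine, stood at 1.25, 4.503 and 5.93 CPM with the control guide and at 1.21, 4.64 and 6.21 CPM with the response element guide. Il11, a stromal cytokine of the same family, stood at 7.18, 9.55 and 19.0 CPM and at 6.57, 8.11 and 21.8 CPM. Both were lowest in replicate 1 and highest in replicate 3 under either guide, so the guides overlapped. The log2 fold changes were 0.02 for Il6 (SE 0.10) and −0.05 for Il11 (SE 0.08; limma adjusted p = 0.977 and 0.937 with the block).

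Il1rn encodes the antagonist that blocks the interleukin 1 receptor. It stood at 64.0, 28.9 and 34.2 CPM with the control guide and at 60.4, 38.3 and 28.7 CPM with the response element guide. Il7, a stromal survival factor of lymphocytes, stood at 12.5, 6.23 and 5.15 CPM and at 10.5, 6.48 and 4.59 CPM. Both were highest in replicate 1, the reverse of Il6 and Il11. Il15, a growth factor of natural killer cells, stayed between 4.76 and 6.30 CPM in all 6 libraries. Il17d, a member of the interleukin 17 family, ranged from 2.58 to 5.42 CPM. Il25, of the same family, had the smallest p of the interleukins and stood at 0.554, 1.07 and 0.887 CPM and at 0.620, 0.573 and 0.632 CPM, with a log2 fold change of −0.25 (SE 0.15, limma adjusted p = 0.763 with the block).

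All 4 TNF superfamily ligands lay below 0, between −0.18 and −0.07, and none was called. Tnfsf11 encodes RANKL, which drives osteoclast formation. It stood at 2.13, 9.62 and 25.3 CPM with the control guide and at 2.24, 8.26 and 23.0 CPM with the response element guide. Each replicate number had its own level, shared by both guides, and the log2 fold change was −0.10 (SE 1.04 without the block and 0.08 with it; limma adjusted p = 0.847 with the block). Tnfsf9, the ligand of the costimulatory receptor 4-1BB, ranged from 5.21 to 7.23 CPM. Tnfsf18, the ligand of GITR, stood at 3.45, 0.802 and 0.813 CPM and at 2.57, 0.501 and 1.004 CPM, and Tnfsf15 ranged from 0.699 to 2.15 CPM. Both were highest in replicate 1.

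The second comparison asked how far ligands differ between replicate numbers, with both guides' libraries of a number as its 2 samples. In limma with guide as a covariate, 30 of the 36 tested ligands differed (83.3%), where 48.6% of all genes did. By class these were 8 of 8 CC chemokines, 9 of 11 CXC and CX3C chemokines, 7 of 11 interleukins, 4 of 4 TNF superfamily ligands and 2 of 2 colony-stimulating factors or LIF. The 6 that were not called were Cxcl16, Pf4, Il15, Il33, Il18 and Il25. edgeR on the recovered reads, which called 44.1% of all listed genes, kept 27 of the 30 and lost Ccl2, Cxcl10 and Il1rn. A fold of at least 2 between the highest and lowest replicate mean (CPM + 0.5) was found in 13 of 36 ligands (36.1%) and in 4.2% of all genes. Among genes with a mean of 10 CPM or more it was 7 of 13 ligands (53.8%) and 2.4% of all such genes. Among genes below that it was 6 of 23 (26.1%) and 7.15%. What a replicate number stands for is not stated in the sources used here, so a culture, an embryo and a day of work cannot be told apart.

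**Figure D4:**
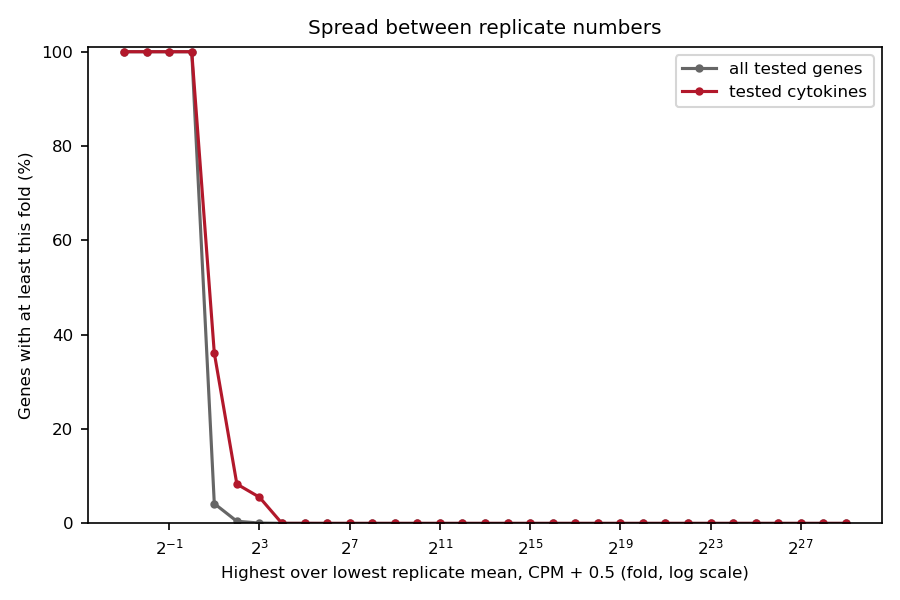
Share of genes (%) whose highest replicate mean exceeds the lowest by at least the fold on the x axis (log scale, on CPM + 0.5), for the 36 tested cytokine genes (red) and all 14440 tested genes (grey). At 2-fold the shares are 36.1% and 4.2%.

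Both replicate 1 libraries were the 2 highest of the 6 in 13 of 36 tested ligands (36.1%, where 25.7% of all genes were) and the 2 lowest in 11 (30.6%, where 25.3% of all genes were). The second share is near that of all genes. The first set included Cxcl15, Cxcl12, Csf1, Il1rn, Il7, Il16, Tnfsf18 and Tnfsf15, and the second Ppbp, Cxcl14, Ccl2, Ccl7, Tnfsf11, Il6, Il11 and Lif. The macrophage marker sum was also highest there, while the ligands of the second set were lowest there. The part of macrophage RNA in either set was not tested.

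Cxcl15, the chemokine lungkine, differed most between replicates. It stood at 32.1, 4.83 and 1.88 CPM with the control guide and at 29.0, 5.71 and 1.91 CPM with the response element guide, 127 to 1916 reads a library. The replicate means lay 16.1-fold apart (limma F test, adjusted p = 1.32e-09), while the guides differed by a log2 fold change of 0.03 (SE 0.09 with the block, 1.22 without). Tnfsf11 ran the other way, with replicate means 11.1-fold apart (limma F test, adjusted p = 2.05e-09).

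Ppbp lies 24.5 kb from Cxcl15 and stood at 1.78, 22.0 and 15.3 CPM and at 2.67, 14.8 and 13.6 CPM, lowest in replicate 1 by 8.26-fold against the highest replicate mean (limma F test, adjusted p = 0.00332). The gap between replicate 1 and the other libraries was clear under both guides. Other wide spreads of replicate means were 5.72-fold for Il16, a T cell attractant, 4.95-fold for Il6, 4.61-fold for Tnfsf18, 3.37-fold for Ccl8, 3.27-fold for Cxcl12 and 2.97-fold for Il11. Il16 overlaps Stard5 on the opposite strand.

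Within the chromosome 5 cluster the members did not share 1 pattern. Cxcl5 was highest in replicate 2 (replicate means 10.8, 22.3 and 12.9 CPM), and Ppbp was lowest in replicate 1 (2.23, 18.4 and 14.5 CPM). Cxcl15 was highest in replicate 1 (30.5, 5.27 and 1.89 CPM). Within 250 bases before the start, Ppbp held TATAAA at 2 places and the AP-1 motif at position −204 from the start, beyond the printed stretch, and Cxcl15 held TATAAA at 1 place and no AP-1 motif. Neither window held the NF-kB consensus. Cxcl3, Cxcl1 and Cxcl2, which share GGGAATTTCCC, had low levels: 0.374, 0.690 and 0.785 CPM for Cxcl3, 2.99, 3.95 and 2.75 CPM for Cxcl1, and 0.251, 0.226 and 0.337 CPM for Cxcl2. The highest replicate was 3 for Cxcl3, 2 for Cxcl1 and 3 for Cxcl2, and the last gene did not pass the filter. Il6 had a mean of 1.23 CPM in replicate 1 and stood between 4.503 and 6.21 CPM in the other libraries.

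**Figure D5:**
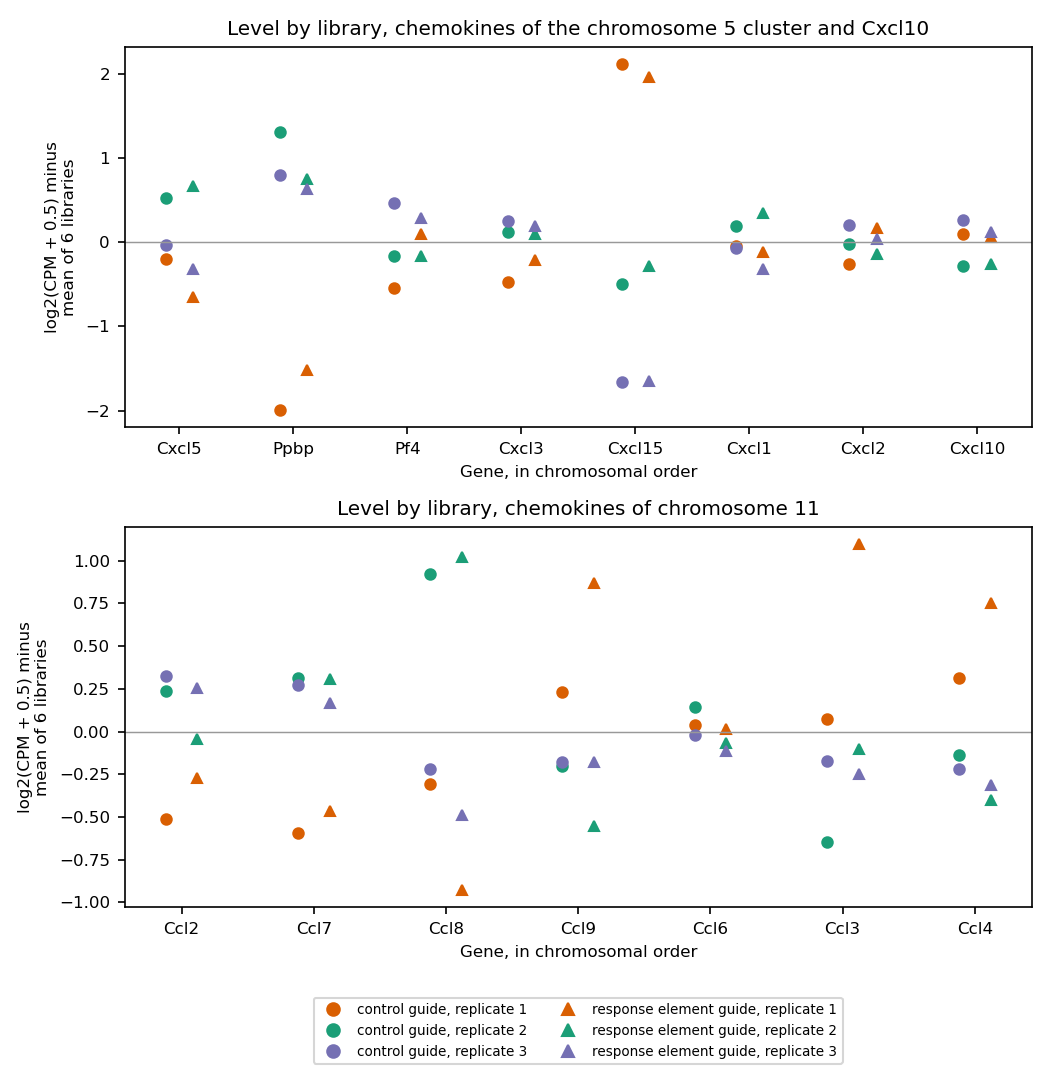
Log2(CPM + 0.5) minus the gene's mean over the 6 libraries, for the chromosome 5 chemokines (top) and the chromosome 11 chemokines (bottom) in chromosomal order; circles are the control guide, triangles the response element guide, and colours the replicate number. Replicate 1 is lowest for Ppbp and highest for Cxcl15, and on chromosome 11 it is lowest for Ccl2 and Ccl7 and highest for Ccl9, Ccl3 and Ccl4.

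On chromosome 11, Ccl2, Ccl7 and Ccl8 lie together, and Ccl9, Ccl6, Ccl3 and Ccl4 follow 1456 kb further on. Ccl2 and Ccl7, whose genes lie 8.26 kb apart, were both lowest in replicate 1 (replicate means 70.4, 99.1 and 112.6 CPM for Ccl2 and 35.7, 64.3 and 60.3 CPM for Ccl7). Ccl8 was highest in replicate 2, at 7.62 CPM against 2.26 and 2.75 CPM. In the other group Ccl9, Ccl3 and Ccl4 were highest in replicate 1, and Ccl6 ranged only from 0.261 to 0.409 CPM.

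Receptors and the NF-kB pathway were examined beside the ligands. Of the 31 interleukin receptors, 21 passed the filter, 7 above 0 and 14 below. In limma 0 receptors were called with or without the block, where 0.0346% and 0% of all genes were. At an unadjusted p under 0.05 there were also 0 receptors with or without it, where 6.68% and 0.346% of all genes lay under it. Il1rl1, the receptor of interleukin 33, was the highest of them per length at 79.8 CPM per kb, whereas Il33 stood at 0.458 CPM per kb. Il1rl1 had 280, 605 and 740 CPM with the control guide and 355, 615 and 705 CPM with the response element guide. Replicate 1 was lowest under both guides and the groups overlapped. Il6st, the signalling subunit shared by the interleukin 6 family, stayed between 173 and 201 CPM.

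Chemokine receptors were largely unlisted: 7 of 23 were in the table and 6 were tested, 3 above 0 and 3 below, 0 called. The 3 with the smallest p were Ccr1, a receptor of Ccl3 (−0.16), Ackr4 (0.12) and Ackr3 (−0.09), both scavengers of chemokines. The TNF receptor superfamily had 20 tested members, 8 above 0 and 12 below, 0 called, with Tnfrsf22 (0.10), Tnfrsf11b (−0.15) and Tnfrsf4 (−0.06) leading by p. Tnfrsf11b encodes osteoprotegerin, the decoy of RANKL, and stood at 102, 56.4 and 52.8 CPM and at 78.4, 57.6 and 49.7 CPM. It was highest in replicate 1, where Tnfsf11 was lowest. Shared receptor subunits had 6 tested, 5 above 0 and 1 below, 0 called, led by Csf2rb (0.16), Csf2ra (0.09) and Lifr (0.06). Limma called 0 genes of these 3 lists and the NF-kB list, with or without the block. Of all genes it called 0.0346% and 0%. At an unadjusted p under 0.05 these lists held 0 genes without the block, where 0.346% of all genes lay under it. With the block they held 1, where 6.68% did. This was Cxcr6, the receptor of Cxcl16, named after its value was seen. Cxcr6 stood at 11.6, 40.9 and 39.0 CPM with the control guide and at 11.3, 35.1 and 33.3 CPM with the response element guide, with a log2 fold change of −0.16 (SE 0.05, limma adjusted p = 0.678 with the block). It was lowest in both replicate 1 libraries, and the guides overlapped.

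The list of NF-kB factors, kinases and feedback inhibitors had 32 tested members, 13 above 0 and 19 below, with a median log2 fold change of −0.005 against −0.0004 for all genes, and 0 were called. The kinase Ripk1 (−0.08), the ubiquitin ligase Birc2 (−0.09) and the inhibitor Nfkbid (0.15) had the smallest p. Between replicates 15 of the 32 (46.9%) differed in the limma F test, where 48.6% of all genes did. A fold of at least 2 between replicates was seen in 2 of the 32 (6.25%), where 4.2% of all genes had it.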

How the data were processed

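Libraries were made from polyadenylated RNA with a strand-specific kit, per the labels' protocols. The submitters' processing notes name build mm10 and, with no role or order, edgeR 3.22.3, HTSeq 0.6.1, StringTie 1.2.4 and TopHat2 2.0.14. Values are the deposited CPM per gene, which the file headers tie to edgeR. The authors' log2 fold changes, log2 CPM and p-values, deposited per the file headers, were not used in the text, nor were the 6 columns of pseudo-counts (an estimated count per the file headers). Reads outside genes (8.06% to 8.94%) and ambiguous reads (0.543% to 1.58%) are not genes and were left out. Reads in whole numbers were recovered from the CPM steps: 100% of values came out whole within 0.01 reads.

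The main test was limma 3.58.1 (R 4.3.3; trend, robust) on log2(CPM + 0.5) across 14440 genes, with Benjamini-Hochberg adjustment over all of them. edgeR 4.0.16 and DESeq2 1.42.0 on the recovered reads were alternatives, run on all listed genes. The fits were also run on simulated data with large changes placed only in well-counted genes. That run does not cover low ligands or small changes. Libraries of equal replicate number varied together: their deviations from the group means correlated at 0.869, 0.739 and 0.817 across genes. Other pairs reached 0.203 at most. Deviations from a group mean cancel out within a guide, so low values of other pairs follow in part from the high ones. The fit with replicate number as a block is therefore given beside the main test. Members, gene lists and tests were chosen with earlier results of these data known. Ligands are named where they are among the 6 highest of a class with a mean of at least 1 CPM, have the smallest p of a class or pass a threshold. List genes are the 3 with the smallest p. Other ligands (Ccl3, Ccl4, Ccl6, Ccl28, Cxcl1 to Cxcl3, Cxcl10, Cxcl16, Pf4, Il16, Il18, Il33) and the receptors Il1rl1 and Il6st were named after their values were seen. Gene positions and exon lengths are from GENCODE M21, and replicates' p-values measure the spread between these samples only.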

Additional observations from a re-analysis of the deposited data

How the results depend on the processing

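Differences between the guides were recomputed under other normalizations, filters, pseudocounts, tools and thresholds and with libraries left out. The count of called ligands stayed 0 in all of them except without replicate 2 in the blocked fit, where it was 2. Over all genes 0 were called in limma, 1 with DESeq2 and 5 with the replicate block. Combined with the replicate block, quantile normalization gave 5, median centring 4, a pseudocount of 1 gave 4 and of 0.1 gave 5, edgeR 5 and DESeq2 6, while limma without trend gave 0. Leaving out replicate 1, 2 or 3 with the block gave 8, 160 and 9. Receptor and pathway lists had 0 calls in each of these alternatives. For the 25 named ligands, 641 of 643 comparisons kept the lack of a call, while the sign changed in 87 of them, in 22 of the 25 genes, so directions are not to be read from them. Few of all genes were called in the settings given above, so the kept lack of a call says little about these ligands in particular. Ligands that differ between replicates numbered 30, and 16 of 19 with a mean of at least 5 CPM, where fewer genes are tested. DESeq2 called 24, of which 23 were among the 30, and limma without trend called 25. Leaving out each library gave 23 to 31, and without the replicate 1 library of the response element guide 30 were called, 28 of them shared. No share of all genes is given for these alternatives, so their counts do not show how ligands stand beside other genes. Depth limits the 7 ligands that did not pass the filter, which had 6 to 72 reads a library.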

Other observations

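Of the 31 interleukin receptors 21 were tested, and 13 of these differed between replicates in the limma F test (61.9%, where 48.6% of all genes did), and 4 had a fold of at least 2 between replicate means (19.0%, where 4.2% of all genes did). Il13ra2, a decoy receptor of interleukin 13, stood at 1.13, 0.546 and 0.133 CPM with the control guide and at 1.03, 0.376 and 0.220 CPM with the response element guide. Il18rap, an accessory chain of the interleukin 18 receptor, stood at 3.91, 8.60 and 8.24 CPM and at 3.64, 7.90 and 7.91 CPM. The first was highest and the second lowest in replicate 1 under both guides. Il17rb, a receptor of interleukin 25, did not pass the filter, with 1.77, 0.0853 and 0.177 CPM and 2.12, 0.125 and 0.234 CPM, so that the 2 replicate 1 libraries held 86.2% of its summed CPM. Il10ra, a chain found mainly on blood cells, stood at 0.727, 0.136 and 0.384 CPM and at 1.28, 0.161 and 0.220 CPM, highest in the same library as the macrophage markers. Whether those cells carry it was not tested. These genes were chosen after their values were seen.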
